A study of Mus musculus with 8 samples.

Results

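Prostaglandin E2 and its relatives are lipid signals made from arachidonic acid. The genes described here encode the receptors that sense them and the enzymes that make and destroy them, measured in 2 stem and progenitor cell fractions of mouse bone marrow. The set holds 10 genes out of 21991 with annotated exons: the receptors Ptger1, Ptger2, Ptger3, Ptger4 and Ptgir, the cyclooxygenases Ptgs1 and Ptgs2, the terminal synthases Ptges and Ptges3, and the breakdown enzyme Hpgd. They were chosen by name with earlier values of these libraries known, so their levels are a description and carry no test of their own. HSC libraries came from lineage-negative cells with c-Kit, Sca1 and CD150 but no CD34 on their surface. HPC libraries came from cells with the same surface markers that also carried CD34. Each fraction had 4 libraries from unmodified C57BL/6 mice aged 8 to 10 weeks, with 5000 sorted cells stated in a protocol that names HSC alone. The labels do not say whether a library came from its own animal or from pooled animals, so the spread between libraries may be technical. Of the genes on which the cells were sorted, Cd34 stood at 92.8 ± 16.7 TPM (reads scaled for exon length and library) in HSC and 940.1 ± 35.7 TPM in HPC (SD, n = 4 each), while Slamf1, which encodes CD150, averaged 26.8 TPM in HSC and 2.16 TPM in HPC although both gates were CD150-positive.

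Cyclooxygenases turn arachidonic acid into prostaglandin H2, terminal synthases turn that into prostaglandin E2, prostacyclin and other products, and a dehydrogenase inactivates them. Prostaglandin E2 binds 4 G protein-coupled receptors: EP2 and EP4 raise cyclic AMP through Gs, EP3 mostly lowers it through Gi, and EP1 raises calcium. The prostacyclin receptor IP also acts through Gs. In blood, prostaglandin E2 is known to regulate the number of stem cells in zebrafish and mice, and blocking its breakdown enzyme is known to speed marrow recovery in mice.

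The libraries held 16291733 to 19070313 exon reads in HSC and 18223082 to 20564901 in HPC. A count of 0 allows a level of up to 3 reads, which is at most 0.184 CPM (reads scaled for library size), a bound for counting error alone. The share of exon reads that span an exon-exon junction divided the 8 libraries into HSC 3, HSC 4, HPC 1 and HPC 2, at 54.8% to 56.8%, and HSC 1, HSC 2, HPC 3 and HPC 4, at 48.6% to 52.2%. Both sides of that division hold 2 libraries of each fraction, so within a side a call can be lost through fewer libraries alone. In bulk libraries, fewer cells that express a gene and less RNA per cell cannot be told apart.

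The EP receptor for which the fractions differed by the most was EP2. Ptger2, which encodes it (NCBI gene 19217, mm10 chromosome 14, 44988111 to 45003820, plus strand), had 4, 6, 6 and 4 exon reads in HSC libraries 1 to 4, against 556, 524, 444 and 445 in HPC libraries 1 to 4. On the TPM scale these were levels of 0.114, 0.157, 0.159 and 0.0937 in HSC and 14.1, 12.4, 12.0 and 10.5 in HPC. All HSC libraries lay far below every HPC library. Normalised CPM averaged 0.266 ± 0.0495 in HSC and 26.2 ± 2.23 in HPC (SD, n = 4 each), 98.4-fold higher in HPC, a log2 change of −6.58 ± 0.24 (SE, HSC over HPC). Among all genes tested, 99.5% had a smaller change in size. Intron reads of Ptger2 were also fewer in every HSC library, with 14, 21, 9 and 2 there and 289, 278, 287 and 244 in HPC libraries, but the gap was smaller than on exon reads. Introns held 69.7% of the gene's reads in HSC and 35.8% in HPC. All exon reads of the gene were uniquely placed. Exon-exon reads numbered 1 over the 4 HSC libraries and 168 over the 4 HPC libraries.

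Ptger4, which encodes EP4, the other Gs-coupled receptor for prostaglandin E2, went the other way (gene 19219, chromosome 15, 5233399 to 5244187, minus strand). It stood at 24.1, 23.8, 22.7 and 18.3 TPM in HSC libraries and at 15.3, 14.5, 16.1 and 10.7 TPM in HPC libraries. The lowest HSC library lay above the highest HPC library. Levels averaged 36.6 ± 3.47 CPM for HSC and 24.2 ± 2.90 for HPC, 1.52-fold higher in HSC, a log2 change of 0.60 ± 0.13. Both lowest values, one in each fraction, belonged to the libraries numbered 4. The log2 change was 0.43 in the 4 libraries with the higher exon-exon share, where it missed the threshold used below, and 0.76 in the 4 with the lower share, where it passed.

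Ptger3, which encodes the Gi-coupled EP3 (gene 19218, chromosome 3, 157566816 to 157644758, plus strand), differed little between the fractions. Its levels were 24.4, 15.9, 23.8 and 17.3 TPM in HSC and 22.3, 25.4, 22.6 and 21.6 TPM in HPC. The ranges overlapped, and the HSC libraries were the more spread, with a coefficient of variation of CPM of 20.2% against 6.76% in HPC. The log2 change was −0.24 ± 0.16. Between 44.2% and 64.7% of the gene's reads fell in introns, so exon reads are a part of its signal.

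Counted together, the EP receptors were present at a like level in both fractions but in other proportions. The summed TPM of Ptger2, Ptger3 and Ptger4 was 42.7 ± 6.02 in HSC and 49.3 ± 4.43 in HPC, with overlapping ranges. Ptger4 made up 52.3 ± 5.07% of that sum in HSC and 28.4 ± 2.85% in HPC. Ptger3 made up 47.4 ± 5.12% in HSC and 46.7 ± 3.36% in HPC. Ptger2 made up 0.308 ± 0.0740% in HSC and 24.8 ± 1.66% in HPC. Of the Gs-coupled pair, the sum of Ptger2 and Ptger4 was 18.4 to 24.3 TPM in HSC and 21.2 to 29.3 TPM in HPC, and Ptger2 held 42.9% to 49.7% of it in HPC but at most 0.696% in HSC. TPM is scaled within a library, so these sums compare shares of the mRNA and not molecules per cell.

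**Figure D1:**
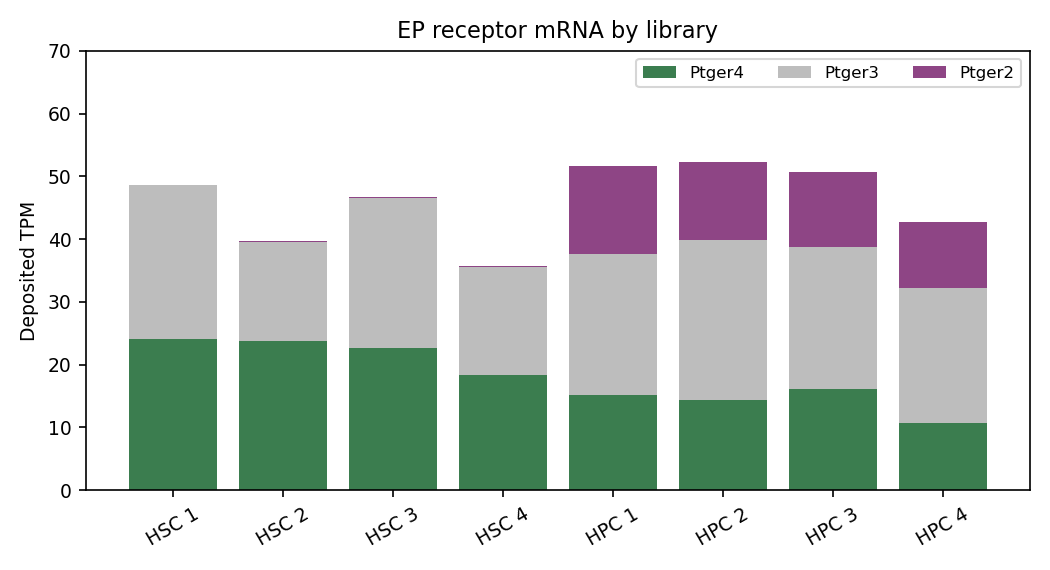
Deposited TPM of Ptger4, Ptger3 and Ptger2 stacked for each of the 4 HSC and 4 HPC libraries. The stacks reach 35.7 to 48.7 TPM in HSC and 42.8 to 52.3 TPM in HPC, and the Ptger2 segment is visible in the HPC libraries only.

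The prostacyclin receptor was also lower in HSC. Ptgir (gene 19222, chromosome 7, 16905419 to 16910905, plus strand) had 12, 29, 25 and 17 exon reads in HSC libraries and 116, 169, 162 and 114 in HPC libraries. The fractions did not overlap, but the HSC values rest on few reads and on 3 exon-exon reads in all. Levels averaged 1.10 ± 0.359 CPM for HSC and 7.46 ± 1.47 for HPC, 6.81-fold higher in HPC, a log2 change of −2.75 ± 0.34. With its 2.54 to 4.13 TPM in HPC it was still below Ptger2, Ptger3 and Ptger4 there.

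Ptger1, which encodes EP1, gave no reading of its own. Its row (gene 19216, chromosome 8, 83666640 to 83672756, plus strand) held 208, 273, 318 and 226 exon reads in HSC libraries and 253, 386, 243 and 214 in HPC libraries, but 0 of these 2121 reads were uniquely placed. Only 4 reads over all 8 libraries crossed a Ptger1 exon-exon junction. The ranges overlapped, and since no read was assigned to this gene alone, the log2 change of −0.09 ± 0.19 is no value for EP1.

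Among the synthases, Ptges stood apart. It encodes the inducible microsomal prostaglandin E synthase, which usually works with a cyclooxygenase (gene 64292, chromosome 2, 30889471 to 30903297, minus strand). HSC libraries held 169, 207, 163 and 213 exon reads of Ptges, against 16, 8, 21 and 0 in HPC libraries. Every HSC library lay above every HPC library, and HPC 4 had no exon read, which allows up to 0.156 CPM there. Levels averaged 10.1 ± 1.34 CPM for HSC and 0.603 ± 0.512 for HPC, 16.7-fold higher in HSC, a log2 change of 4.05 ± 0.55. Fits that left out 1 library in turn gave 3.64 to 4.56. Exon-exon reads of Ptges were 55 in HSC and 2 in HPC. Intron reads differed far less, at 18, 11, 11 and 29 in HSC libraries and 6, 11, 8 and 7 in HPC libraries, where HPC 2 reached the lowest HSC value. Introns held 8.40% of the gene's reads in HSC and 41.6% in HPC.

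Ptgs1 encodes the constitutive cyclooxygenase COX-1, the form of platelets (gene 19224, chromosome 2, 36216744 to 36252275, plus strand). It was at 41.9, 38.3, 43.5 and 28.9 TPM in HSC libraries and at 9.89, 13.6, 14.0 and 11.2 TPM in HPC libraries. The fractions were well apart, with HSC 4 the lowest of its group. Levels averaged 114.7 ± 14.6 CPM for HSC and 38.3 ± 5.59 for HPC, 2.99-fold higher in HSC, a log2 change of 1.58 ± 0.13. The change had the same size in libraries of the higher exon-exon share (1.57) and of the lower share (1.59). Exon-exon reads, 4263 in HSC and 1476 in HPC, made up 49.9% of its exon reads in HSC and 51.3% in HPC.

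Ptgs2, the cyclooxygenase COX-2 that many stimuli induce, was close to the limit of detection (gene 19225, chromosome 1, 150100031 to 150108234, plus strand). It had 39, 0, 10 and 0 exon reads in HSC libraries and 5, 16, 26 and 3 in HPC libraries. Those from HSC came mostly from HSC 1, and the groups overlapped. The log2 change of 0.05 ± 1.09 became −1.93 without HSC replicate 1. Of the summed TPM of both cyclooxygenases, Ptgs1 made up 97.6% or more in every HSC library and 95.5% or more in every HPC library.

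Ptges3 was the most abundant of the 10 genes. It encodes p23, a partner protein of the chaperone Hsp90 for which a cytosolic prostaglandin E synthase activity has also been described (gene 56351, chromosome 10, 128058928 to 128077256, plus strand). Its levels were 602, 618, 597 and 585 TPM in HSC libraries and 708, 644, 682 and 678 TPM in HPC libraries. The ranges did not overlap, but the difference was small, at 584 ± 36.4 CPM for HSC and 687 ± 46.9 for HPC, a log2 change of −0.23 ± 0.09. Between 69.7% and 78.1% of its exon reads were uniquely placed, and of 21289 exon-exon reads only 1589 were, so its level is uncertain where copies of the gene share reads. On unique exon reads the log2 change was −0.27.

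Hpgd encodes the dehydrogenase that inactivates prostaglandin E2 (gene 15446, chromosome 8, 56294552 to 56321046, plus strand). It had 31, 24, 74 and 50 exon reads in HSC libraries and 35, 33, 41 and 11 in HPC libraries. Values of the fractions overlapped, and at 2.37 ± 1.07 CPM for HSC and 1.60 ± 0.711 for HPC the coefficient of variation was 45.1% in HSC and 44.6% in HPC. The log2 change was 0.57 ± 0.49, with 0.10 in libraries of the lower exon-exon share and 0.86 in those of the higher share. A difference could not be read from counts this low.

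**Figure D2:**
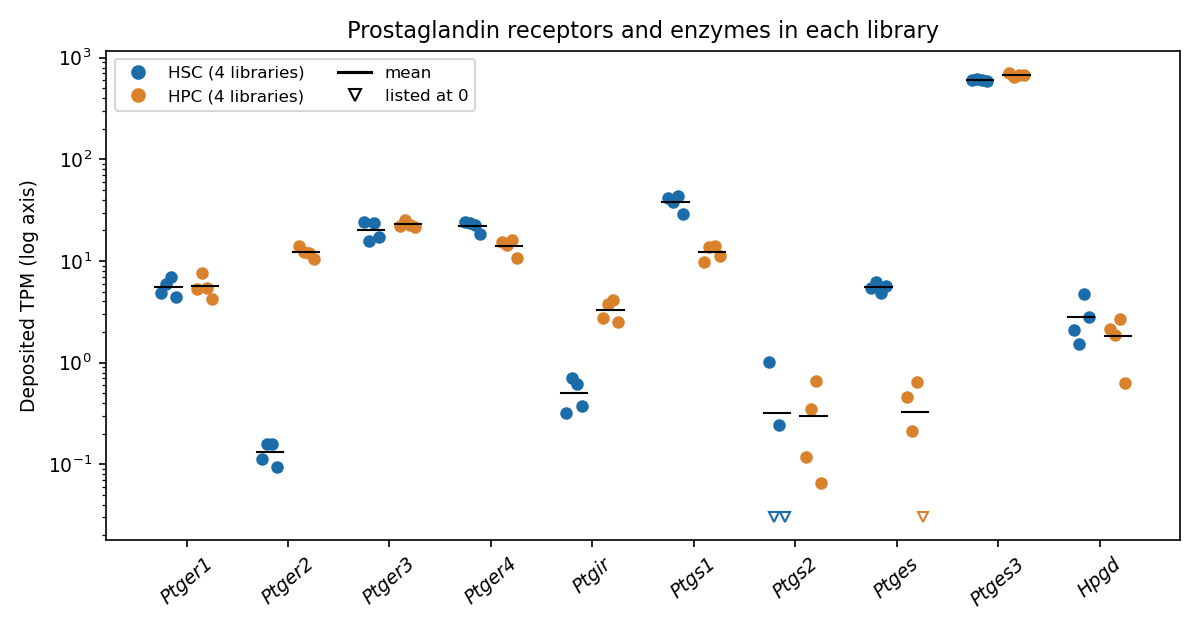
Deposited TPM (log axis) of each gene in the 4 HSC and 4 HPC libraries, with the mean as a line and libraries listed at 0 as open triangles below the axis values. Ptger2 and Ptgir sit lower in HSC, Ptger4, Ptgs1 and Ptges sit higher, and Ptger1, Ptger3, Ptgs2 and Hpgd overlap.

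All 10 genes passed the filter on low counts. In the fit over all genes, 5 of them passed the threshold, Ptger4, Ptgs1 and Ptges with higher and Ptger2 and Ptgir with lower levels in HSC, where 37.1% of the 12751 genes tested passed (19.6% higher and 17.6% lower; edgeR quasi-likelihood test, adjusted p under 0.05). The groups lay fully apart for 6 of them, those 5 and Ptges3, where 36.7% of all genes tested did. Since values of this same contrast were known when the genes were chosen, nothing is read from these counts. With reads that cross an exon-exon junction as the measure, 6 of the genes had enough reads to be tested. Ptger2 and Ptgs1 passed again, Ptger4 was tested and missed the threshold at a log2 change of 0.47, and Ptgir and Ptges had too few such reads. Ptger4 missed the threshold in a test that asked for a change of over 1.5-fold. Under the alternatives run, the sign held for Ptger2, Ptger3, Ptger4, Ptgir, Ptgs1, Ptges, Ptges3 and Hpgd, while Ptger1 and Ptgs2 changed sign in some.

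**Figure D3:**
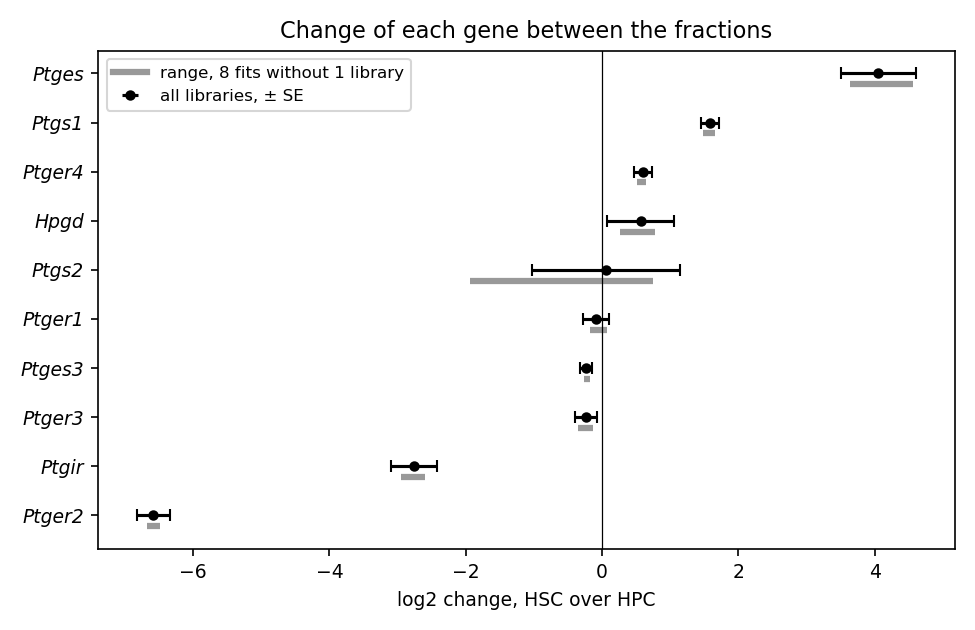
Log2 change of each gene, HSC over HPC, with its standard error (black) and the range over 8 fits that each left out 1 library (grey). Ptges (4.05) and Ptger2 (−6.58) lie farthest from 0, and the grey bar of Ptgs2 reaches to −1.93.

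Promoter sequences are shown for the 5 genes that passed that threshold, since the windows around their start sites differ in base composition. RefSeq (GRCm38.p6) gives 250 bases before and 50 after a start for 9 of the 10 genes. Capitals mark matches, on either strand, to the GC box GGGCGG, the TATA box TATAAA, the cyclic AMP response half-site TGACG, the GATA site GATAA, the ETS site AGGAAG, the RUNX site TGTGGT and the E-box CACGTG. All are written 5′ to 3′ on the strand of the gene. The windows are chr14:44987861-44988160 (plus strand) for Ptger2, chr7:16906240-16906539 (plus) for Ptgir, chr15:5244138-5244437 (minus) for Ptger4, chr2:36230176-36230475 (plus) for Ptgs1 and chr2:30903248-30903547 (minus) for Ptges. For Ptgir and Ptgs1 the RefSeq start lies inside the span that the deposited files give the gene.
Ptger2: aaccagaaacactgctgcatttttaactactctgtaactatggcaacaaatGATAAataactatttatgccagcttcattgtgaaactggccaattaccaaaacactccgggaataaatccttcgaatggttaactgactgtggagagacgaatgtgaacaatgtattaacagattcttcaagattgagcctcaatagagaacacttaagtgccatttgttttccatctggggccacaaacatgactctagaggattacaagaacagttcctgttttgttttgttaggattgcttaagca
Ptgir: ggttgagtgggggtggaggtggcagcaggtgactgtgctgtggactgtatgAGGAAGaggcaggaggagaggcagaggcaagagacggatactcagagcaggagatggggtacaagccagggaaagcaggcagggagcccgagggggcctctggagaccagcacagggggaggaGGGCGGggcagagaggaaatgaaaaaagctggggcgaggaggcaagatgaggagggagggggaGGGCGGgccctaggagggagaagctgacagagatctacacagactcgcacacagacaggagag
Ptger4: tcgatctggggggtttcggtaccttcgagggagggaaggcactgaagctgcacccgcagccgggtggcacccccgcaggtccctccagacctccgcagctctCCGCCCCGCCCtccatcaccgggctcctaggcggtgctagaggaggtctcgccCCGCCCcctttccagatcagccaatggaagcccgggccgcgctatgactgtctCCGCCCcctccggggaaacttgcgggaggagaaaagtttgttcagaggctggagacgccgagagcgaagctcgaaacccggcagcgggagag
Ptgs1: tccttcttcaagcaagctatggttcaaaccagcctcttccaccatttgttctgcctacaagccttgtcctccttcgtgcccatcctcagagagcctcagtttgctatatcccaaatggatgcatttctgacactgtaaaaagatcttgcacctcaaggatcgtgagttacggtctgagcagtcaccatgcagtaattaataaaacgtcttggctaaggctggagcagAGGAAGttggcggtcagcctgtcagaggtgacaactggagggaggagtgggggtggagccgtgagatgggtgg
Ptges: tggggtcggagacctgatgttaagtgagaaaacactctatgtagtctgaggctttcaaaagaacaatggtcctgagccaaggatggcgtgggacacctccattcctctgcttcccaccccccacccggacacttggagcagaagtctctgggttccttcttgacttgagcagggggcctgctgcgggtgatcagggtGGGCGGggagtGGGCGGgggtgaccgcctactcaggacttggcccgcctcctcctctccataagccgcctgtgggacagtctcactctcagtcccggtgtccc

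The EP2 and EP4 promoters were unlike in composition. Ptger2 had 37.7% G and C with 3 CpG pairs and Ptger4 67.0% with 25, where the median over 32851 windows was 52.7% with 7. Ptger4 holds 4 GC boxes, a pair of them overlapping by a base, Ptges holds 2 and Ptgir 2, while none was found in the windows of Ptger2 and Ptgs1. Of all windows, 35.7% hold a GC box. Ptger2 is the one gene of the 9 with a GATA match (25.4% of all windows hold one), and Ptgir and Ptgs1 have an ETS match (35.4% of all windows). None of these 5 windows holds the cyclic AMP half-site, which 20.8% of all windows do. Such matches describe letters only.

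For the 6 genes with a mean of at least 5 TPM, the genes whose log2 CPM ran most alike over the 8 libraries were looked up among 9302 named genes of at least that level. Ptger2 ran closest to Adgrg3 (Pearson r = 0.999) and Haao (0.999), which averaged 7.71 TPM and 4.22 TPM in HSC, against 130.6 TPM and 47.7 TPM in HPC. Ptgs1 ran closest to Rab11fip3 (0.998) and Slc27a6 (0.994). Ptger4 had Stard4 (0.987) and Rec8 (0.982) as its nearest, and Ptges3 had Rfc5 (0.988) and Uxt (0.987). For these 4 genes a high r mostly restates the gap between fractions. Ptger3, without such a gap, ran closest to Urm1 (0.932) and Slc30a7 (0.919), and the Ptger1 row to Snx13 (0.947) and Ubqln1 (0.925). These were picked as the highest among 9302 genes over only 8 libraries. How high r runs in such a pick without any link was not tested, so no shared control is read from them.

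Other genes of the pathway were taken from a list of 102 in 9 roles, of which 98 matched a gene in the files and 82 were tested. Higher in HSC were 21, lower were 15 and 46 had no call, so 43.9% passed, beside 37.1% of all genes tested. Their median log2 change was 0.09, against 0.00 over all genes.

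Upstream of the cyclooxygenases, 4 of 8 tested genes that release arachidonic acid or its precursors were higher in HSC and none lower. So 50% of this role passed, beside 37.1% of all genes tested (19.6% higher and 17.6% lower). Pla2g4a, the cytosolic phospholipase that supplies most arachidonic acid in many cells, had no call at 96.5 ± 5.95 CPM for HSC and 104.4 ± 3.85 for HPC (edgeR adjusted p = 0.35). Pla2g12a, a secreted phospholipase, rose to 64.9 ± 13.7 CPM in HSC, against 23.7 ± 4.03 CPM in HPC (log2 1.45 ± 0.17, edgeR adjusted p = 7.8e-06). Mgll, which frees arachidonic acid from an endocannabinoid, was 7.30-fold higher in HSC than in HPC (log2 2.86 ± 0.34, edgeR adjusted p = 1.1e-05).

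The thromboxane pair changed in opposite directions. Tbxas1, the synthase that turns prostaglandin H2 into thromboxane, had 232.2 ± 10.3 CPM in HSC against 59.7 ± 9.84 CPM in HPC (log2 1.96 ± 0.12, edgeR adjusted p = 1.1e-08). Tbxa2r, the thromboxane receptor, had 19.1 ± 3.31 CPM in HSC against 47.5 ± 4.71 CPM in HPC (log2 −1.31 ± 0.15, edgeR adjusted p = 7.0e-06). Tbxa2r was the only one of the 4 other prostanoid receptors with enough reads for the test, and Ptgdr and Ptgfr had 0 reads in all libraries. In all, the 6 other synthases tested held 2 with higher levels in HSC, 2 with lower levels and 2 with no call. Thus 66.7% of them passed, beside 37.1% of all genes tested. Akr1b3, a reductase with prostaglandin F synthase activity, was the most abundant of them and slightly lower in HSC, at 179 ± 8.80 CPM against 235 ± 9.78 CPM in HPC (edgeR adjusted p = 0.0017).

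Of 7 transport and breakdown genes, 2 were higher in HSC, 1 was lower and 4 had no call (42.9% passed, beside 37.1% of all genes tested). Slco3a1, a transporter known to carry prostaglandins, was 5.63-fold lower, at 30.4 ± 2.89 CPM for HSC and 171 ± 10.2 for HPC (log2 −2.49 ± 0.10, edgeR adjusted p = 3.7e-10). Ptgr3, a reductase of the prostaglandin breakdown route, was 1.28-fold higher (edgeR adjusted p = 0.030), a call lost without HSC replicate 1 or 2 or HPC replicate 1 or 4 (adjusted p from 0.073 to 0.097). Cbr1, a carbonyl reductase and the most abundant of the role by TPM, had no call (log2 0.25 ± 0.13, edgeR adjusted p = 0.14).

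The lipoxygenase and leukotriene branch, as listed, draws on the same arachidonic acid. Of its 9 genes tested, 4 were lower in HSC, 2 were higher and 3 had no call. Their median was −0.61, and 66.7% passed, beside 37.1% of all genes tested. Ltc4s, the leukotriene C4 synthase, was 6.70-fold lower, at 1.82 ± 0.866 CPM for HSC and 12.2 ± 0.888 for HPC (log2 −2.74 ± 0.31, edgeR adjusted p = 7.5e-06). Alox5ap, which presents arachidonic acid to a lipoxygenase, was the most abundant at 204 ± 18.7 CPM for HSC and 266 ± 19.4 for HPC (edgeR adjusted p = 0.0049). The call of Alox5ap ended on exon-exon reads (adjusted p = 0.11) and within the 4 libraries of higher exon-exon share (adjusted p = 0.20). Ephx2, an epoxide hydrolase that the list counts in this role and no leukotriene synthase, was 8.14-fold higher in HSC than in HPC (log2 3.02 ± 0.39, edgeR adjusted p = 2.4e-05). Mast cells are rich in this branch, and all 8 mast cell and basophil markers looked at were lower in HSC, as were 17.6% of all genes tested. The summed level of these markers was 8.46 to 66.0 TPM in HSC and 124 to 309 TPM in HPC. Cma1 and Tpsb2 had 0 reads in every HSC library, and Prss34 was the most abundant, at 19.1 TPM in HSC and 100.1 TPM in HPC. Their part in the leukotriene genes, in Ptger2 and in Ptgir was not tested.

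Among signalling genes below the receptors, 8 of 19 for cyclic AMP synthesis and its effectors passed (42.1%, beside 37.1% of all genes tested), 2 of 11 G proteins and receptor regulators (18.2%) and 1 of 9 phosphodiesterases (11.1%). Of the G proteins, Gnai1, a Gi subunit, was 12.2-fold higher in HSC but low (3.83 ± 2.24 CPM for HSC and 0.315 ± 0.257 for HPC, edgeR adjusted p = 0.0012), and the abundant Gnai2 fell by 0.29 on the log2 scale (edgeR adjusted p = 0.018). That call of Gnai2 ended under upper quartile scaling (adjusted p = 0.089). Of 19 genes of cyclic AMP synthesis and its effectors, 6 were higher, 2 lower and 11 without a call. Rapgef3, which encodes the cyclic AMP sensor EPAC1, was 2.09-fold higher in HSC than in HPC (log2 1.06 ± 0.20, edgeR adjusted p = 6.9e-04) and Prkar2b, a regulatory subunit of protein kinase A, 1.61-fold higher (log2 0.69 ± 0.09, edgeR adjusted p = 3.9e-05). Prkar1a, the most abundant subunit, had no call (log2 −0.19 ± 0.10, edgeR adjusted p = 0.15). Among 9 phosphodiesterases only Pde4b passed, 1.20-fold lower in HSC (edgeR adjusted p = 0.042), a call lost in 7 of 8 fits that left out a library and under upper quartile scaling.

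Transcripts that cyclic AMP or prostaglandin E2 is known to raise in other settings were split, since of 12 tested 4 were higher in HSC and 3 lower. So 58.3% passed, beside 37.1% of all genes tested. Dusp1, a phosphatase of MAP kinases, was 1.84-fold higher (log2 0.88 ± 0.16, edgeR adjusted p = 4.6e-04). Rgs2, a regulator of G protein signalling, was lower in HSC, at 16.0 ± 3.77 CPM against 48.0 ± 3.84 CPM in HPC (log2 −1.58 ± 0.16, edgeR adjusted p = 2.5e-06). Birc5, which encodes survivin and is also a gene of dividing cells, was 1.87-fold lower (log2 −0.90 ± 0.11, edgeR adjusted p = 1.0e-05). The log2 change of Dusp1 was 0.50 in the 4 libraries of higher exon-exon share and 1.29 in the 4 of lower share, and its call ended in those of higher share (edgeR adjusted p = 0.070).

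**Figure D4:**
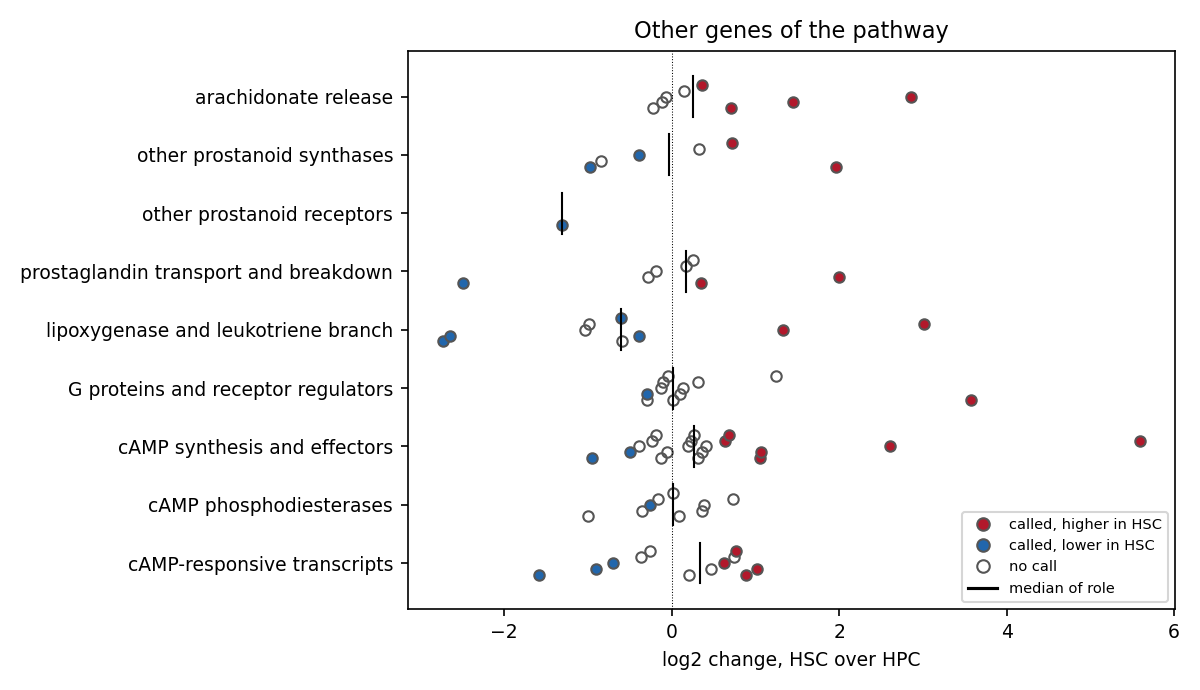
Log2 change, HSC over HPC, of the 82 other pathway genes tested, by role, with calls higher (red) and lower (blue) in HSC filled and the median of each role as a black line. Calls of both directions stand side by side in 6 of the 9 roles.

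Markers of further cell types were read beside these genes. For comparison, 19.6% of all genes tested were called higher and 17.6% lower in HSC. Platelets are rich in COX-1 and thromboxane synthase, and of 9 megakaryocyte and platelet markers 5 matched and 4 were tested, 3 higher and 1 lower in HSC, with a summed level of 119 to 142 TPM in HSC and 71.6 to 97.3 TPM in HPC. Itga2b, the most abundant and the 1 called lower, was at 44.9 ± 7.64 TPM in HSC and 52.9 ± 6.06 TPM in HPC. The 3 called higher were Gp9 (34.8 TPM in HSC and 12.8 in HPC), Gp5 (28.6 and 15.8) and Vwf (17.4 and 1.19). Gp6 was not tested, with 0 reads in every HSC library and a mean of 0.0704 TPM in HPC. Pf4, Gp1bb, Ppbp and Treml1 had no match and so gave no value. The part of platelet-lineage cells in Ptgs1 and Tbxas1 was not tested. Neutrophil and monocyte markers (9, of which 7 were tested) held 2 with lower levels in HSC and 5 without a call. The list summed to 352 to 599 TPM in HSC and 521 to 908 TPM in HPC. The 2 called lower were Elane (44.0 TPM in HSC and 224 in HPC) and Csf1r (2.02 and 12.1). Lyz2, the most abundant, had no call at 366 TPM in HSC and 476 TPM in HPC. Ly6g was at 0 in every library. Macrophage markers had 1 of 5 lower in HSC, the most abundant Cd68, and 4 without a call. They summed to 28.6 to 45.6 TPM in HSC and 51.9 to 74.2 TPM in HPC. T and NK cell markers had 3 of 6 higher, 1 lower and 2 without a call. These summed to 130.4 to 166 TPM in HSC and 694 to 885 TPM in HPC. Most of that sum was Nkg7, the 1 called lower, at 109.9 TPM in HSC and 783 TPM in HPC. The 3 called higher were Cd3e (17.7 TPM in HSC and 4.85 in HPC), Cd3d (9.98 and 2.79) and Cd8a (1.63 and 0.455). The sort for lineage-negative cells with c-Kit and Sca1 is meant to remove mature cells of these kinds. The part of these lists in Ptger2 and Ptgir was not tested. All 5 markers of long-term stem cells were higher in HSC, led by Hlf. They summed to 248 to 327 TPM in HSC and 76.9 to 103 TPM in HPC. Of 5 B cell markers 3 were higher and 2 had no call. These summed to 104 to 118 TPM in HSC and 84.4 to 98.8 TPM in HPC. Cd79b, the most abundant B cell marker, had no call at 86.3 TPM in HSC and 84.8 TPM in HPC. Endothelial markers had 3 of 6 higher and 1 lower. Their summed level was 60.2 to 86.4 TPM in HSC and 86.9 to 96.1 TPM in HPC. Pecam1, the most abundant over all 8 libraries and the 1 called lower, averaged 24.5 TPM in HSC and 59.2 TPM in HPC. Emcn, among those called higher, averaged 40.1 TPM in HSC and 27.0 TPM in HPC. Of 4 stromal markers 1 was tested and was higher. That marker, Cxcl12, was the most abundant of the list at 2.81 TPM in HSC and 0.696 TPM in HPC. The part of the stem cell, B cell, endothelial and stromal lists in Ptger4, Ptgs1 and Ptges was not tested.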

How the data were processed

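RNA of 4 HSC and 4 HPC libraries was compared, grouped by title. Per the labels' protocols, ISOGEN extraction, SMARTer Pico cDNA, 18 PCR cycles and Nextera XT were used. The build is mm10, per the submitters' processing notes; the sources used here do not give the aligner, counter or strand setting. The deposited counts are whole reads per annotation row (exon, exon-exon, intron and gene reads, total and uniquely placed), per the file headers. The deposited TPM is in proportion to exon reads over exon length within a library, as checked on the described genes, and the deposited RPKM was not used. TPM served for levels between genes and CPM for levels between fractions.

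Total exon reads were summed per gene ID and tested with edgeR 4.0.16 (R 4.3.3): filterByExpr, TMM, quasi-likelihood F test, Benjamini-Hochberg over 12751 genes, threshold 0.05. The script was tested on simulated data. Standard errors are the change divided by the root of F, and folds are ratios of mean CPM. Members, lists and tests were chosen with earlier results of these data known. Of the pathway list, per role the 2 called genes lowest in adjusted p and averaging 1 CPM or more and the most abundant gene are named; of each cell type list named, the most abundant. Ptgdr, Ptgfr and list members at 0 were added after their values were seen, as were markers singled out. Alternatives were other scalings, filters and read classes, DESeq2 1.42.0, voom (limma 3.58.1), the replicate block and leaving out each library. The division of libraries by exon-exon share was added after seeing the data. A further gene that was examined is not reported here.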

Additional observations from a re-analysis of the deposited data

How the results depend on the processing

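Over all genes, 2493 were higher and 2240 lower in HSC. A tested fold of 1.5 left 1296 and 803, and 9 and 6 of the 21 and 15 other pathway genes. On exon-exon reads 12 pathway genes were higher, and at an adjusted p under 0.01 13 were. Leaving out each library gave 2188 to 2419 genes higher and 1970 to 2183 lower, and 16 to 19 pathway genes higher and 14 to 16 lower. Deviations of same-numbered libraries from their fraction means correlated at −0.12 to 0.15. Such values cannot tell whether the numbers mark a shared animal or day, and the labels do not say. With the replicate block 2588 genes were higher and 2448 lower, and 22 and 15 pathway genes. Upper quartile scaling gave 2929 higher and 1820 lower. With the exon-exon share as a term, chosen after seeing the data, 2503 were higher and 2279 lower.

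Of the genes described, Ptger1 and Ptgs2 changed sign under some alternatives; neither was called. Ptges3 was called under the replicate block, on unique exon reads, with DESeq2, with voom and without HSC replicate 4. Low reads limit Ptgs2, Hpgd, Ptgir in HSC, and Ptges in HPC. No single library stood apart from its 3 fellows by Dixon's criterion in the 20 groups looked at. Of the other named pathway genes, the calls of Akr1b3, Ptgr3, Alox5ap, Gnai2, Rapgef3, Pde4b and Dusp1 ended within the 4 libraries of higher exon-exon share (edgeR adjusted p of 0.070 to 0.41), and those of Ptgr3, Gnai2 and Pde4b also within the 4 of lower share (0.086 to 0.59). These fits hold 2 libraries of each fraction. In the higher share, against all libraries, log2 changes were −0.36 against −0.39 for Akr1b3, 0.28 against 0.35 for Ptgr3 and −0.32 against −0.39 for Alox5ap. They were −0.27 against −0.29 for Gnai2, 0.88 against 1.06 for Rapgef3, −0.41 against −0.26 for Pde4b and 0.50 against 0.88 for Dusp1. In the test for a change of over 1.5-fold, the calls of Prkar2b (edgeR adjusted p = 0.23) and Dusp1 (0.063) ended. Those of Akr1b3, Ptgr3, Alox5ap, Gnai2 and Pde4b ended there too.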

Other observations

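Uniquely placed exon-exon reads of Ptges3 followed the division of the libraries by exon-exon share, not the fractions. They numbered 36, 27, 420 and 430 in HSC libraries 1 to 4 and 343, 206, 60 and 67 in HPC libraries 1 to 4, whereas total exon-exon reads of the gene were 2093 to 2796 in HSC and 2659 to 3199 in HPC. The high values are those of HSC 3, HSC 4, HPC 1 and HPC 2. In HSC, spliced reads of Ptges also went this way, as 12.3% and 10.8% of its exon reads in HSC 3 and HSC 4 crossed a junction, against 2.96% and 3.38% in HSC 1 and HSC 2. For Hpgd the shares were 60.8% and 60.0% in HSC 3 and HSC 4 and 35.5% and 20.8% in HSC 1 and HSC 2. In HPC the shares of Hpgd did not follow the division, at 62.9%, 45.5%, 39.0% and 54.5% in HPC libraries 1 to 4. The labels give nothing that sets these libraries apart.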
